A study of Rattus norvegicus with 6 samples.

Results

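The uptake, activation and oxidation of fatty acids was followed through 35 genes in neonatal rat ventricular cardiomyocytes (NRVCs) cultured with or without C3a. The genes were chosen by their known function and grouped into the steps of the pathway. Each gene was represented by the probe with the highest mean signal among those whose accession carries its symbol in the rat gene table. These 35 genes stood among 16575 named genes on the arrays and among 10390 named genes with a signal that passed the filter, which all 35 passed. The probes of 34 of them were well above background on all 6 arrays, and the probe of Ppard was so on 5, the exception being control 1.

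Long-chain fatty acids are the main fuel of the adult heart. They enter the cardiomyocyte through membrane transporters, are bound by cytosolic proteins, are linked to coenzyme A and cross into mitochondria on carnitine, where beta-oxidation shortens them step by step and passes electrons to the respiratory chain. The heart relies on glucose and lactate before birth and turns to fatty acids in the days after it, under the nuclear receptor PPARα and its coactivator PGC-1α. C3a is the small fragment released when complement C3 is cleaved.

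The study asked how C3a alters gene expression in these cells. The cells came from the pooled ventricles of 8–10 Sprague-Dawley rats of 1–2 days and were preplated before culture in serum-free medium, so each array stands for a pool and not for 1 animal. Control cells (n = 3) received no C3a, and C3a cells (n = 3) received the recombinant protein at 0.5 µg/ml for 12 h. The methods describe a short starvation in low serum before stimulation. The labels do not say whether the replicates were separate cultures, so the p-values given here measure the spread between these samples, which may be technical.

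RNA was labelled with 1 dye and hybridised to 6 arrays on 1 slide, where all controls lay in 1 row of arrays and all C3a samples in the other row, so position and treatment cannot be told apart. Control 1 stood apart, with 38.6% of 45598 probes well above background against 53.7–57.3% on the other arrays, and its local background had a median of 47 intensity units, where the other arrays had 23 or 24. No spot was saturated. Signals are given as the log2 intensity after subtracting that of the 75th percentile on the same array, called the relative log2 signal, so that 0 is the 75th percentile and values of one gene can be compared between arrays. All 8 cardiomyocyte markers, among them Myh6 and Tnnt2, were well above background on every array. Their summed relative signal on the linear scale was lowest on control 2, at 4673, against 5687–6055 on the other controls and 5790–6578 with C3a. The summed fibroblast, endothelial, macrophage and smooth muscle markers were also lowest on control 2. Such sums weigh the brightest probes most. Of the 6 fibroblast markers only Col1a1 read lowest there, and of the 4 smooth muscle markers only Acta2. The fibroblast sum was 90.06 on control 2 and 90.18 on C3a 2. Of 4 adipocyte markers with a probe (Adipoq, Cidec, Lep and Retn), 0 were well above background on any array. In RNA from a whole culture, fewer cells of a type and less RNA per cell cannot be told apart.

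The genes Hadha and Hadhb encode the α and β subunits of the mitochondrial trifunctional protein and lie head to head on rat chromosome 6. Their promoters are shown because the probes of the paired subunits differed in their behaviour across the arrays. Promoter sequences from RefSeq (build GRCr8) were found for 28 of the 35 genes and run from 250 bases before the start of the gene to 50 bases after it. The window of Hadha was chr6:31907551-31907850 on the plus strand and that of Hadhb was chr6:31907451-31907750 on the minus strand, with start sites 301 bases apart at 31907801 and 31907500. Capitals mark the 200 bases, 31907551 to 31907750, that both windows hold, read as reverse complements of each other.
Hadha: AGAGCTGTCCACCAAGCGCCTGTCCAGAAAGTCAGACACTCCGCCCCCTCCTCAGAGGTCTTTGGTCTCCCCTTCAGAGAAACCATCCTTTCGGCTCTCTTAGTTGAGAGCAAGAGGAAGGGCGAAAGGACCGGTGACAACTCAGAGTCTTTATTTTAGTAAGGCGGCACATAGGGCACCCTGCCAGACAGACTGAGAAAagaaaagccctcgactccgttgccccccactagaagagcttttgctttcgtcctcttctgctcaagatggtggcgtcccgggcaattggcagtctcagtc
Hadhb: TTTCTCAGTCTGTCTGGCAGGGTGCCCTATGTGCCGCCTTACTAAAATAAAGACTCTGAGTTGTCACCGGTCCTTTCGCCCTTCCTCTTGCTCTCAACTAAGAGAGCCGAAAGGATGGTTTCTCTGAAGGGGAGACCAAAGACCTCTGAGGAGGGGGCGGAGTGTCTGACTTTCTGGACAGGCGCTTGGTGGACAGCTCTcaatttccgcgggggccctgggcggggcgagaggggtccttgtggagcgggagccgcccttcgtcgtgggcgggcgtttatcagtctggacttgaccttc
The letters AGGTCA, the core element bound by nuclear receptors such as the PPARs, were searched on both strands and occurred 0 times in the Hadha window and 1 time in that of Hadhb. The letters GGGCGG, the GC box, occurred 1 and 4 times. Across the 28 promoters, AGGTCA was present in 8 (28.6%), against 15.7% of 27457 rat promoters of the same length, and GGGCGG in 16 (57.1%), against 34.9%. A direct repeat of AGGTCA with 1 base between the copies was found in 0 of the 28 and in 0.0583% of all promoters. The extended element TCAAGGTCA, which holds AGGTCA within it, was found in 0 of the 28 and in 0.412%. These matches describe the letters in the window and no binding.

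With C3a, no fatty acid gene passed the test. Of the 35 genes, 0 passed an adjusted p of 0.05 in limma (two-sided, Benjamini-Hochberg over 23438 kept probes), where 0% of the 10390 named genes did. At an unadjusted p of 0.05, limma gave 0 fatty acid genes higher and 0 lower, against 2.91% of all genes higher and 2.43% lower. The equal-variance test that the methods name also gave 0 in each direction. The smallest adjusted p among the 35 genes was 0.743. The log2 fold changes ran from −0.47 for Hadhb to 0.50 for Etfdh, with a median of 0.033 beside 0.036 for all genes. Of the 35, 21 (60%) lay above 0 and 14 below, where 60.6% of all genes lay above 0 and 39.4% below. This split differed between settings, with 9 above and 26 below under quantile normalisation, and it was 16 above and 19 below without control 2 or without C3a 1. Without control 1 it was 22 above and 13 below. Under quantile normalisation the median change was −0.055 for the 35 genes and 0.022 for all kept probes. The shares of all genes above 0 in these settings are not given, and the cause of the differences was not tested.

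The precision differed between genes. The standard error of the log2 fold change was 0.088–0.40 with a median of 0.12. The 95% interval held 0 for all 35 genes, stayed within 0.5 either way for 26, and stayed within 1 for 34. The exception was Etfdh, whose interval ran from −0.43 to 1.44. The 3 control and 3 C3a values did not overlap for 4 genes. Cpt1b was higher with C3a, in a comparison where 8.15% of all genes were higher without overlap, and Lpl, Hadhb and Etfa were lower, where 4.84% of all genes were. Arrays of the same replicate number deviated together across probes, and with this number as a block limma gave 0 genes higher and 2 lower at an unadjusted p of 0.05. These were Hadhb and Etfa, against a background of 5.8% higher and 6.04% lower, and the smallest adjusted p with the block was 0.262.

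**Figure D1:**
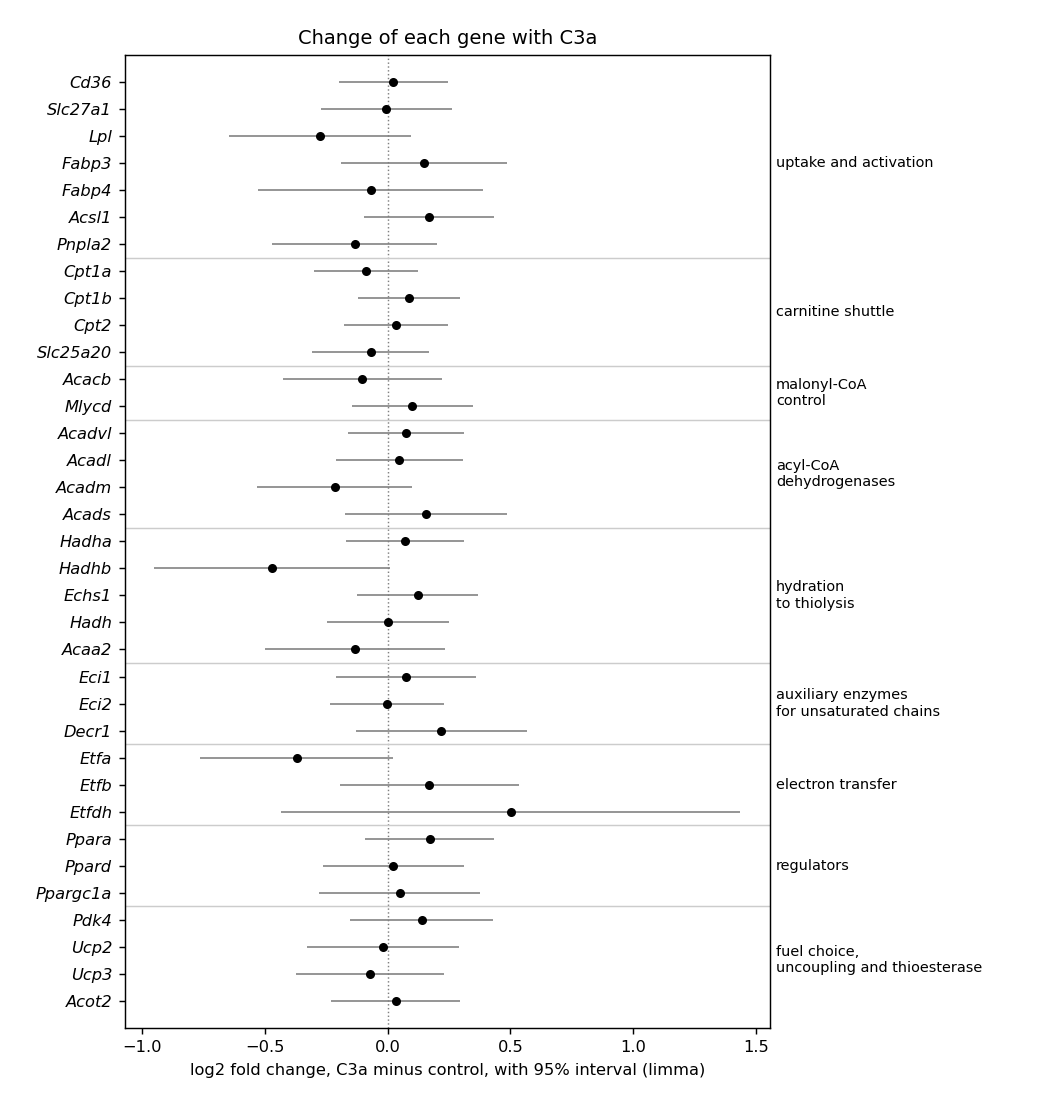
Log2 fold change (C3a minus control, n = 3 each) of the 35 genes by pathway step, with bars for the 95% interval from limma. Every interval crosses 0, the widest is that of Etfdh, and the points lie between −0.47 and 0.50.

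The signals of the 35 genes are plotted per array by step. Brightness differs between probes for reasons of sequence and labelling, so the level of one gene was not set against that of another.

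**Figure D2:**
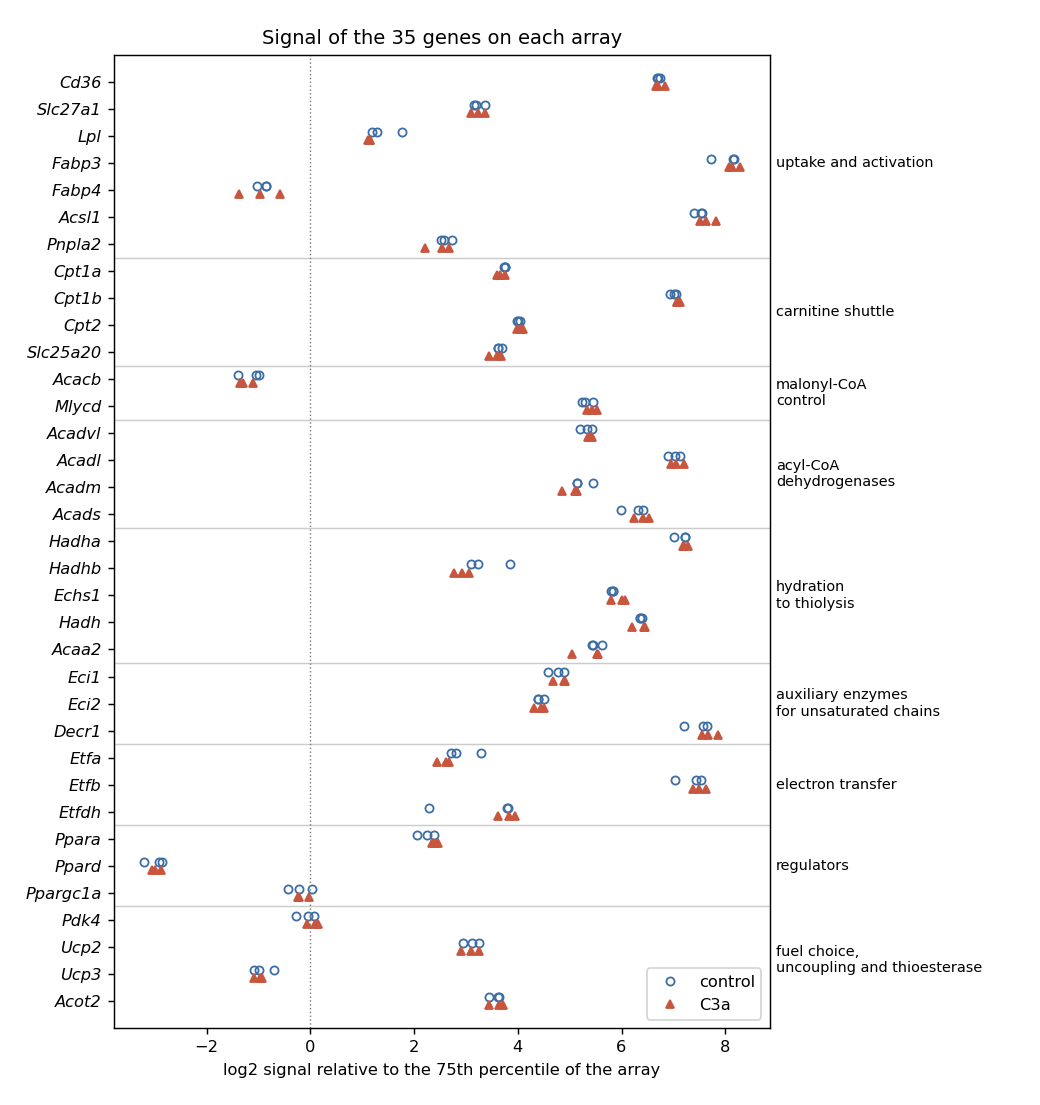
Relative log2 signal of the 35 genes on each of the 6 arrays, by pathway step, with open circles for control and triangles for C3a. The dotted line at 0 is the 75th percentile of the array. Control 1 stands apart for Etfdh at 2.28, and control 2 for Hadhb at 3.85, Etfa at 3.30 and Lpl at 1.76.

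The 7 genes of uptake and activation all carried signal in both groups. Cd36, the main fatty acid translocase of the cardiomyocyte, read 6.74, 6.69 and 6.70 in the controls and 6.84, 6.66 and 6.70 with C3a. These values overlapped, and the difference was 0.02 (95% interval −0.20 to 0.25), turning to −0.12 under quantile normalisation. Another, dimmer probe of Cd36 differed by 0.20. The transporter Slc27a1 differed by −0.0043 between groups.

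Lpl, the lipoprotein lipase that frees fatty acids from circulating triglyceride, read 1.28, 1.76 and 1.19 in the controls and 1.15, 1.15 and 1.12 with C3a. All 3 C3a values lay below all 3 controls, and control 2 was the highest. The log2 fold change was −0.27 (SE 0.16, limma unadjusted p = 0.124, adjusted p = 0.743), and it was −0.099 without control 2. Acsl1, the main acyl-CoA synthetase of the heart, read 7.55, 7.39 and 7.53 in the controls and 7.82, 7.52 and 7.64 with C3a. Here C3a 1 was the highest and the groups overlapped. The difference was 0.17 (SE 0.11, limma unadjusted p = 0.178, adjusted p = 0.743), and it was −0.0054 under quantile normalisation. Fabp3 read 8.16, 7.73 and 8.15 in the controls and 8.28, 8.13 and 8.07 with C3a. The difference for this heart form of the fatty acid binding proteins was 0.15, and it was 0.0067 without control 2, the lowest of the 6 arrays for this gene, and −0.033 under quantile normalisation. Pnpla2, the triglyceride lipase that frees stored fatty acids, differed by −0.13 and Fabp4, a fatty acid binding protein best known from adipocytes, by −0.07. Fabp4 ranged from −1.38 to −0.60 within the C3a group alone, and its difference was 0.016 after normexp background correction.

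The carnitine shuttle moves acyl groups across the inner mitochondrial membrane. Carnitine palmitoyltransferase 1 is its controlled step and is encoded by Cpt1a, the form of liver and fetal heart, and Cpt1b, the form of adult heart and muscle. Both were well above background on all 6 arrays. Cpt1a read 3.76, 3.74 and 3.76 in the controls and 3.66, 3.74 and 3.59 with C3a. C3a 2 lay within the range of the controls and the other C3a arrays below it. The difference was −0.09 (SE 0.09, limma unadjusted p = 0.367, adjusted p = 0.782). Cpt1b read 7.04, 6.94 and 7.01 in the controls and 7.13, 7.07 and 7.06 with C3a, so that every C3a array lay above every control by a small margin. The difference was 0.09 (SE 0.09, limma unadjusted p = 0.352, adjusted p = 0.776), and it was −0.063 under quantile normalisation.

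The choice between the isoforms was compared as the difference of their relative log2 signals within each array, which removes any scaling of a whole array. It does not remove a change that differs between bright and dim probes, and the Cpt1b probe was the brighter of the pair. The probes differ in efficiency, so the size of the difference has no meaning for the amount of each isoform and only its shift with C3a was read. Cpt1a minus Cpt1b was −3.28, −3.20 and −3.25 in the controls and −3.47, −3.32 and −3.47 with C3a. All 3 C3a arrays lay below all 3 controls. The shift was −0.17 (SE 0.06, exact permutation test, two-sided p = 0.10, the smallest that 3 against 3 allows). Between arrays of the same number, the shifts were −0.19, −0.12 and −0.22 (exact sign permutation over 3 pairs, p = 0.25, again the smallest possible). Leaving out 1 array at a time gave shifts of −0.23 to −0.15, and quantile normalisation gave −0.086, with groups that overlapped. The exact test on 3 against 3 arrays cannot reach the 0.05 threshold, whatever the size of the shift.

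The other shuttle genes differed little. Cpt2, which restores acyl-CoA on the matrix side, differed by 0.03 (95% interval −0.18 to 0.24) and Slc25a20, the carnitine carrier, by −0.07 (95% interval −0.31 to 0.17). Malonyl-CoA, made by Acacb and removed by Mlycd, inhibits carnitine palmitoyltransferase 1. Acacb read −1.39, −0.995 and −1.06 in the controls and −1.36, −1.29 and −1.10 with C3a, a difference of −0.10 with overlapping groups. Mlycd differed by 0.10 (95% interval −0.15 to 0.35), or −0.00011 under quantile normalisation.

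The acyl-CoA dehydrogenases open each round of beta-oxidation, each on a range of chain lengths. Of the 4 genes, 3 lay above 0 and 1 below, and 0 passed. Acadvl, for very long chains, differed by 0.08, Acadl, for long chains, by 0.05, and Acads, for short chains, by 0.16. Under quantile normalisation these values were −0.036, −0.11 and 0.022. Acadm, for medium chains, read 5.14, 5.45 and 5.14 in the controls and 5.09, 5.15 and 4.84 with C3a. Control 2 was the highest array and C3a 3 the lowest, and C3a 2 lay just above controls 1 and 3. The difference was −0.22 (SE 0.13, limma unadjusted p = 0.152, adjusted p = 0.743), and it was −0.11 without control 2 and −0.12 without C3a 3.

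Hydration, a further dehydrogenation and thiolysis complete the round, on long chains in the trifunctional protein and on shorter chains in separate enzymes. Hadhb, the thiolase subunit whose promoter is printed above, read 3.22, 3.85 and 3.09 in the controls and 2.93, 3.06 and 2.76 with C3a. Control 2 was the highest array, and all C3a arrays lay below all controls, C3a 2 only just. The log2 fold change was −0.47, or a fold of 0.722 (SE 0.20, 95% interval −0.95 to 0.01, limma unadjusted p = 0.0542, adjusted p = 0.743), and with the replicate block the unadjusted p was 0.0124 and the adjusted p 0.262. Without control 2 the change was −0.24. Hadha, the subunit that shares the promoter region, read 7.23, 7.01 and 7.23 in the controls and 7.28, 7.21 and 7.19 with C3a. For this probe control 2 was the lowest array and the groups overlapped. The difference was 0.07, turning to −0.087 under quantile normalisation, and the other probes of Hadha differed by 0.08 and 0.15. The probe at 0.08 was also lowest on control 2. The probe at 0.15, the dimmest, read 3.75, 3.76 and 3.78 in the controls and 3.95, 3.85 and 3.95 with C3a. On that probe every C3a array lay above every control, and control 2 was not the lowest array.

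Hadha minus Hadhb within an array was 4.003, 3.17 and 4.13 in the controls and 4.35, 4.14 and 4.43 with C3a. All C3a arrays lay above all controls, C3a 2 only just. The shift was 0.54 (SE 0.31, exact permutation test, two-sided p = 0.10, the smallest possible), and it was 0.24 without control 2. This difference and that of Etfa and Etfb were chosen after the values were seen. For the remaining enzymes the 95% interval held 0. Echs1, the short-chain hydratase, read 5.84, 5.80 and 5.84 in the controls and 6.06, 6.01 and 5.79 with C3a, with C3a 1 and C3a 2 above the controls and C3a 3 below them. Its difference was 0.12 (SE 0.10, limma unadjusted p = 0.275, adjusted p = 0.756). Hadh, the short-chain dehydrogenase, differed by 0.0014 and Acaa2, a 3-ketoacyl-CoA thiolase, by −0.13 (95% interval −0.50 to 0.23). For Acaa2, C3a 3 at 5.04 lay below the other 5 arrays, which read 5.44–5.62, and without it the difference was 0.031.

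Unsaturated chains need auxiliary enzymes that move or remove a double bond. The isomerases Eci1 and Eci2 differed by 0.08 and −0.0031. Decr1, the dienoyl-CoA reductase, read 7.65, 7.21 and 7.56 in the controls and 7.86, 7.56 and 7.67 with C3a. C3a 1 and C3a 3 lay above all controls and C3a 2 did not, and control 2 was the lowest. The difference was 0.22 (SE 0.15, limma unadjusted p = 0.182, adjusted p = 0.743), and it was 0.087 without control 2 and 0.042 under quantile normalisation.

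Electrons from the dehydrogenases pass through the electron transfer flavoprotein, made of Etfa and Etfb, to its oxidoreductase Etfdh. Etfa read 2.81, 3.30 and 2.72 in the controls and 2.67, 2.61 and 2.44 with C3a. Every C3a array lay below every control, and control 2 was again the highest. The log2 fold change was −0.37, a fold of 0.774 (SE 0.17, limma unadjusted p = 0.0618, adjusted p = 0.743). With the replicate block the unadjusted p was 0.0342 and the adjusted p 0.331, and without control 2 the change was −0.19. Etfb read 7.53, 7.02 and 7.44 in the controls and 7.63, 7.50 and 7.37 with C3a, with control 2 the lowest and a difference of 0.17 that was 0.016 without control 2. Etfa minus Etfb within an array was −4.72, −3.73 and −4.72 in the controls and −4.96, −4.89 and −4.94 with C3a. The shift was −0.54 (SE 0.33, exact permutation test, two-sided p = 0.10, the smallest possible), or −0.21 without control 2, and C3a lay lower on all 3 arrays. In both subunit pairs, control 2 was the array farthest from the others.

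**Figure D3:**
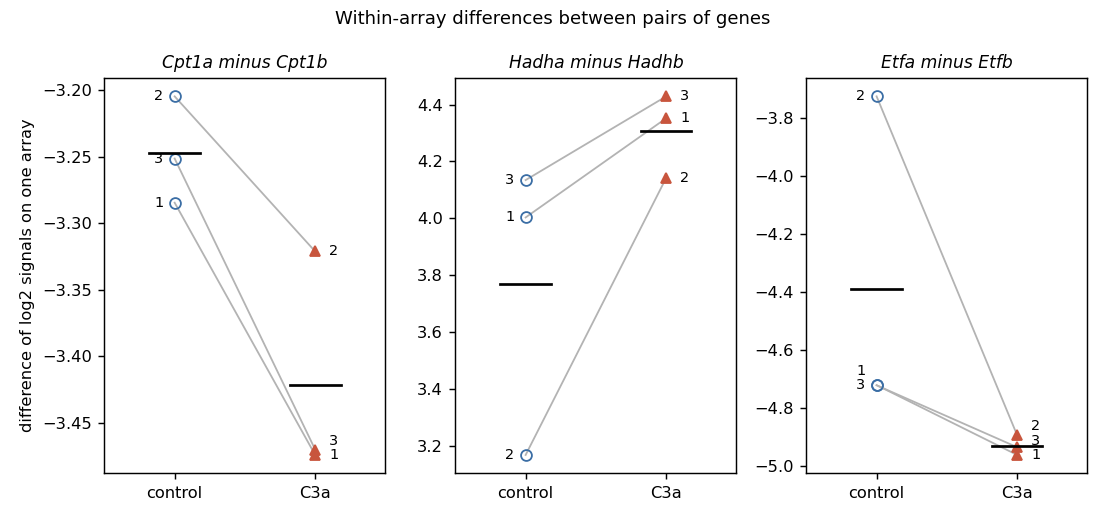
Difference of the relative log2 signals of paired genes on each array, with replicate numbers beside the points, lines joining arrays of the same number and bars for group means (n = 3). Vertical scales differ between panels. Cpt1a minus Cpt1b spans −3.47 to −3.20, and control 2 lies far from the other controls in both subunit pairs, at 3.17 and −3.73.

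Etfdh gave the highest log2 fold change of the 35 genes and the least certain. It read 2.28, 3.81 and 3.80 in the controls and 3.94, 3.82 and 3.63 with C3a. Control 1 stood at −1.34 from the next lowest array, and the groups overlapped. The difference was 0.50 (SE 0.40, limma unadjusted p = 0.247, adjusted p = 0.75), and it was −0.0070 without control 1.

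Among the regulators, Ppara, which encodes the nuclear receptor PPARα, read 2.38, 2.06 and 2.26 in the controls and 2.41, 2.35 and 2.46 with C3a. C3a 1 and C3a 3 lay above the controls and C3a 2 lay just below control 1. The difference was 0.17 (SE 0.11, limma unadjusted p = 0.167, adjusted p = 0.743), or 0.086 without control 2, while another and dimmer probe of Ppara differed by 0.0012. Ppard, the related receptor PPARδ, differed by 0.02 (SE 0.12, limma unadjusted p = 0.848, adjusted p = 0.958), turning to −0.024 without normalisation. Ppargc1a, which encodes PGC-1α, read −0.43, 0.02 and −0.22 in the controls and −0.23, −0.23 and −0.02 with C3a. The groups overlapped and the difference was 0.05 (SE 0.14, limma unadjusted p = 0.732, adjusted p = 0.922), with −0.061 without control 1.

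The last group holds genes that respond to fatty acid supply. Pdk4, the kinase that closes pyruvate dehydrogenase and so spares glucose, read 0.07, −0.28 and −0.04 in the controls and 0.14, −0.07 and 0.09 with C3a. Control 2 was the lowest array, C3a 1 and C3a 3 lay above all controls and C3a 2 did not. The difference was 0.14 (SE 0.12, limma unadjusted p = 0.294, adjusted p = 0.760), and it was 0.043 without control 2. The uncoupling proteins Ucp2 and Ucp3 differed by −0.02 (95% interval −0.33 to 0.29) and −0.07 (95% interval −0.37 to 0.23). Acot2, a mitochondrial thioesterase that releases free fatty acid from acyl-CoA, differed by 0.03 and its other probe by 0.09.

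The 35 genes did not vary alike from array to array. Of them, 14 (40%) read lowest on control 2, where 38.4% of all genes did, and 16 (45.7%) read lowest on C3a 3, where 26.0% of all genes did. The arrays ranked bright genes differently, so the 25 fatty acid genes in the brightest of 4 equal signal classes were also set beside all genes of that class. Of the 25, 12 (48%) read lowest on control 2, against 62.3% of the class, and 11 (44%) on C3a 3, against 22.9%. C3a 1 gave the highest value of 18 of the 35 genes (51.4%), against 33.2% of all genes, and of 16 of the 25 bright ones (64%), against 63.4% of the class. Control 2 gave the highest value of 7 genes, or 20% against 19.3% of all genes, and of 2 of the 25 bright ones (8%), against 7.20% of the class. The 7 were Lpl, Acacb, Acadm, Hadhb, Etfa, Ppard and Ppargc1a. Among them are Lpl, Hadhb and Etfa, the 3 genes with C3a values below all controls. On the same array the summed cardiomyocyte markers were lowest, and so were the summed fibroblast, endothelial, macrophage and smooth muscle markers. Most single fibroblast and smooth muscle markers read lowest on other arrays. The cardiomyocyte marker Ryr2 read highest on control 2, at 2.80, and so did the dim endothelial marker Emcn, at −2.80. The part of these low sums in the differences was not tested. The summed fibroblast markers were 90.1–104 in the controls and 90.2–106 with C3a, with all 6 genes detected on some array, and the summed endothelial markers were 33.3–45.9 and 42.3–53.5. The macrophage markers summed to 0.868–1.29 in the controls and 0.976–1.08 with C3a, with C1qa and Mrc1 not well above background on any array, and the smooth muscle markers to 33.1–38.5 and 34.4–36.7.

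**Figure D4:**
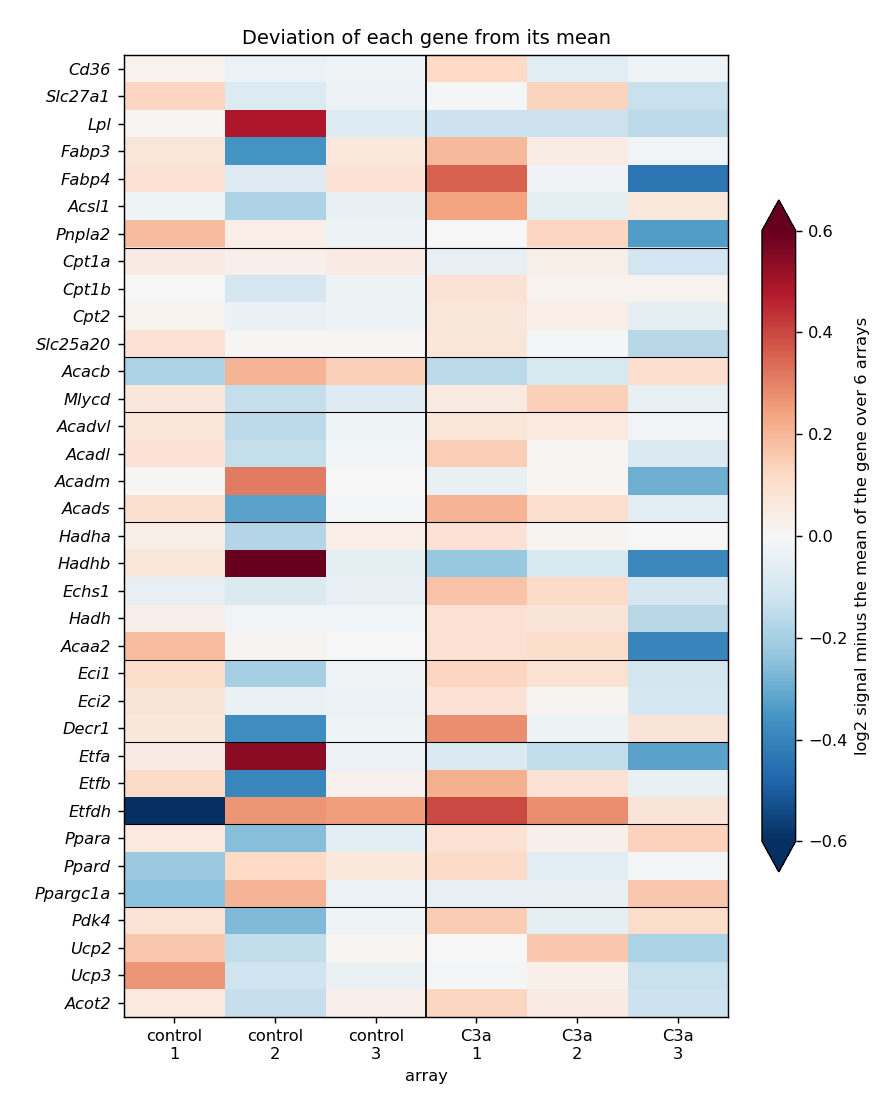
Deviation of the relative log2 signal of each gene from its mean over the 6 arrays, with arrays in columns and genes in rows by pathway step. Control 2 is high for Hadhb, Etfa, Lpl and Acadm and low for Fabp3, Decr1, Etfb and Acads. C3a 3 is the lowest array for 16 genes, and Etfdh is low on control 1 alone.

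Bright genes lay above 0 more often than dim ones in the whole data set, so the fatty acid genes were set beside genes of like signal. The 10390 genes were divided into 4 equal classes by mean signal, which held 1, 5, 4 and 25 of the 35 genes from dim to bright. The brightest class was wide, with mean relative log2 signals from 2.77 to 10.5, so signal was matched only roughly within it. The median log2 fold change of all genes was 0.034, −0.0074, 0.021 and 0.074 in these classes, and 80.9% of the genes in the brightest class lay above 0. The 25 fatty acid genes of the brightest class had a median of 0.048, and 17 of them (68%) lay above 0. Against the median of its own class, 14 of the 35 genes lay above and 21 below, with a median difference of −0.040, and 15 of 35 lay between the quartiles of their class. The median standard error was 0.12 for the 35 genes and for all genes alike. No test was made of these medians, which describe these 6 arrays.

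**Figure D5:**
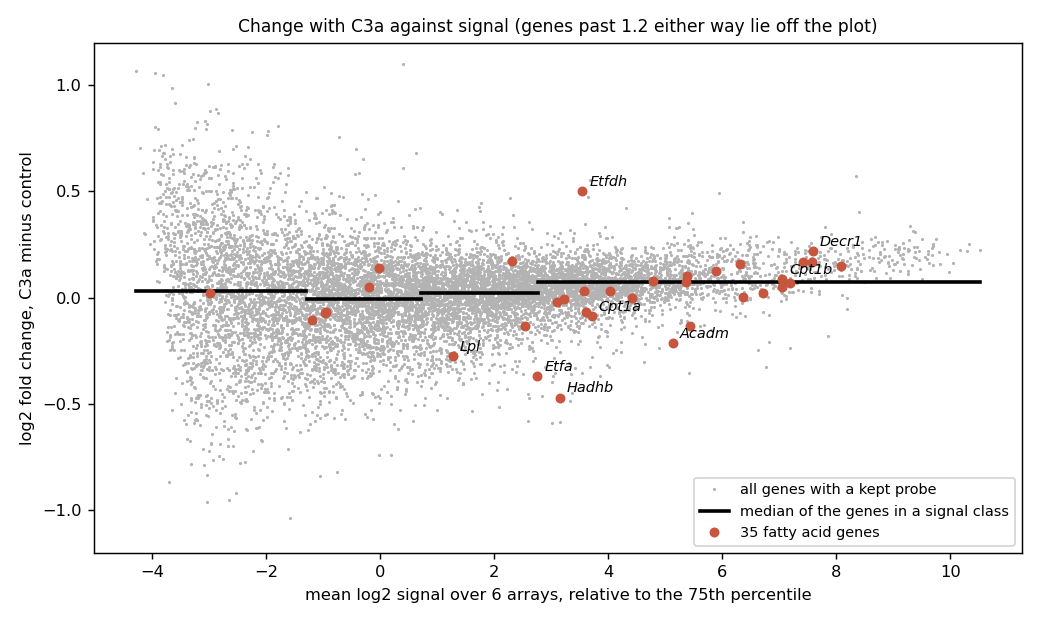
Log2 fold change (C3a minus control) against mean relative log2 signal for 10390 genes (grey) and the 35 fatty acid genes (red), with bars for the median of each of 4 signal classes. Of the 35, 25 lie in the brightest class, where the median of all genes is 0.074, and 15 of the 35 lie between the quartiles of their class. Hadhb, Etfa and Lpl lie below most genes of like signal, and Etfdh lies above them.

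A further 61 genes of fatty acid handling, listed apart from the 35, covered peroxisomal and other oxidation, further uptake and binding proteins, lipid storage and lipolysis, and regulators. Of these, 51 had a kept probe, and 24 lay above 0 and 27 below, with a median log2 fold change of −0.0029. Of all genes, 60.6% lay above 0, and their median was 0.036. In limma, 0 of the 51 passed the adjusted threshold and 0 an unadjusted p of 0.05, and the smallest unadjusted p was 0.0603. With the replicate block, 1 was higher and 2 were lower at an unadjusted p of 0.05, where 5.8% of all genes were higher and 6.04% lower, so that neither count stood above the background, and 0 passed adjusted. The higher one was Dbi, the acyl-CoA binding protein, at 7.14, 6.88 and 7.20 in the controls and 7.43, 7.28 and 7.29 with C3a. Its groups did not overlap, and the difference was 0.26 (limma with the block, unadjusted p = 0.0454, adjusted p = 0.358). The lower ones were Got2, a mitochondrial aminotransferase also described as a fatty acid binding protein of the plasma membrane, at −0.32 (unadjusted p = 0.0141 with the limma block), and Mgll, the monoglyceride lipase, at −0.25 (unadjusted p = 0.0319 with the limma block). Both had overlapping groups. Over the 51 genes, the groups did not overlap for 2 higher ones, Dbi and the lipid droplet gene Plin4, and for 3 lower ones, Acad11, the lipid droplet gene Plin2 and the nuclear receptor gene Rxra, beside the 8.15% and 4.84% of all genes given above. The difference was 0.11 for Plin4, −0.16 for Acad11, −0.23 for Plin2 and −0.17 for Rxra, each with an adjusted p of 0.743 or above in limma. The probes of Slc22a5, Slc27a6, Gpihbp1, Esrrb and Ucp1 were not well above background on any array.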

How the data were processed

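RNA of 3 control and 3 C3a samples of NRVCs was measured on 1-colour Agilent arrays, with samples grouped by their titles. The authors deposited spot intensity values from Agilent Feature Extraction 11.5.1.1 (version from the submitters' processing notes), corrected for background and not normalised between arrays. They also deposited a log2 table, which matched the log2 intensity after subtraction of each array's 75th percentile, with no centring of genes (median difference at most 0.0062, Pearson's r 0.99999 or above over the probes). Precision is limited by having 3 arrays a group.

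Control spots and outlier flags were left out, spots of a probe were averaged, and log2 processed signals were taken relative to the 75th percentile of each array. A probe passed on an array if 50% or more of its spots were well above background by the scanner software, and 23438 probes that passed on all 3 arrays of a group were kept. Of 45598 probes, 46.3% were named through accessions in the RefSeq gene table. C3a was compared with control in limma 3.58.1 (R 4.3.3; lmFit and eBayes, two-sided, Benjamini-Hochberg over kept probes), which was checked on simulated data. Single within-array differences used exact permutation tests (scipy 1.17.1), and plots used matplotlib 3.10.9. All 35 genes are named by step, with full statistics for the 10 smallest p, for Cpt1a, Cpt1b and the regulators. Of the further list of 61 genes, those past an unadjusted p of 0.05 were to be named; those named from the fit with the replicate block or for groups without overlap were chosen after their values were seen. Marker lists covered cardiomyocyte, fibroblast, endothelial, macrophage, smooth muscle and adipocyte. The genes and lists were chosen with earlier results of these data known.

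Alternatives were quantile normalisation, no normalisation, a percentile over detected probes, normexp (offset 50, on the median spot signal), the log2 table, other filters, a variance trend, the equal-variance test of the methods, the median over probes of a gene, a replicate block and each array left out. The replicate numbers were checked for pairing, which comes from the values and not from the labels. Deviations from group means correlated at 0.28, 0.32 and 0.31 for arrays of the same number and between −0.26 and −0.093 for other pairs of a control and a C3a array. Deviations within a group cancel for each probe, so positive values for arrays of the same number push the other pairs lower. The negative values are therefore no separate evidence of pairing. All arrays shared 1 slide, so no slide block was fitted.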

Additional observations from a re-analysis of the deposited data

How the results depend on the processing

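No setting brought a fatty acid gene past the adjusted threshold in limma, the smallest adjusted p in any setting being 0.262, and no setting gave a gene higher with C3a at an unadjusted p of 0.05. The count lower at an unadjusted p of 0.05, 0 as reported, was 4 without normalisation, 2 with the replicate block, with probes detected on all 6 arrays and with a variance trend, and 1 with normexp and with the median over probes. It was 0 to 2 when 1 array was left out, with 1 without control 1 and 2 without control 3. Of the 23438 kept probes, 2599 passed an unadjusted p of 0.05 in limma in either direction without normalisation, 985 with normexp and 1364 as reported. With the replicate block, 6.04% of all genes were lower. Shares over all genes are not given for the other settings, so those counts cannot be set beside a background. Without normalisation 4 probes of the whole table passed the adjusted threshold, against 0 as reported and 0 with any array left out. Quantile normalisation gave a median change of −0.055 with 9 genes above 0 and 26 below. Leaving out 1 array gave medians of −0.014 to 0.085, with 16 to 25 genes above 0 and 10 to 19 below. The median change of all kept probes was 0.048 as reported, −0.28 without normalisation, to which single changes under that setting are relative, 0.022 under quantile normalisation and −0.10 with no filter. Of the 35 genes, 14 kept their direction in every alternative run and 21 reversed in at least 1, with 48 reversals in all. Under quantile normalisation, reversed values were −0.12 for Cd36, −0.033 for Fabp3, −0.0054 for Acsl1, −0.063 for Cpt1b, −0.029 for Cpt2, −0.00011 for Mlycd, −0.036 for Acadvl, −0.11 for Acadl, −0.087 for Hadha, −0.14 for Hadh, −0.011 for Eci1 and −0.020 for Acot2. Without normalisation they were −0.025 for Cd36, −0.015 for Cpt2, −0.047 for Hadh, −0.024 for Ppard and −0.016 for Acot2. With the percentile over detected probes they were −0.0056 for Cd36, −0.027 for Hadh and −0.0045 for Ppard, and with normexp −0.023 for Cd36, 0.016 for Fabp4 and −0.013 for Hadh. The cause was not tested. With 1 array left out, the genes that reversed ranged from −0.031 to 0.059 (Cd36), −0.073 to 0.062 (Slc27a1), −0.26 to 0.13 (Fabp4), −0.014 to 0.10 (Acadl), −0.0019 to 0.11 (Hadha), −0.044 to 0.085 (Hadh), −0.22 to 0.031 (Acaa2), −0.0039 to 0.15 (Eci1), −0.047 to 0.049 (Eci2), −0.0070 to 0.76 (Etfdh), −0.080 to 0.091 (Ppard), −0.061 to 0.16 (Ppargc1a), −0.10 to 0.072 (Ucp2), −0.15 to 0.043 (Ucp3) and −0.027 to 0.11 (Acot2). The shift of Cpt1a minus Cpt1b was −0.23 to −0.15, that of Hadha minus Hadhb 0.24 to 0.72 and that of Etfa minus Etfb −0.71 to −0.21 with 1 array left out. The replicate block changed no call at the adjusted threshold.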
